A study of Mus musculus with 20 samples.

Results

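The genes described here are those of sterol and fatty acid synthesis, with the factors that control them, in mouse kidney cortex. The members were 36 gene symbols, each found by its mouse Ensembl ID among the 43430 genes of the count files, and all 36 of them were measured above the filter on low counts that left 16152 genes for testing. They fell into a sterol arm of 18 genes, a fatty acid arm of 10 genes, 5 genes of the SREBP control machinery and 3 genes of cholesterol efflux and receptor turnover. RNA came from male C3H/HeJ mice that began a high-fat diet at 10 weeks of age and, after 8 weeks on it, received intraperitoneal injections 3 times a week for 8 weeks. SP MAT2Ai mice were homozygous for Sweet Pee (SP), a missense mutation of Slc5a2 that the labels call Sglt2 mutant, and received 10 mg/kg of MAT2Ai, a MAT2A inhibitor built from N-methylaniline and a styryl group that carries chlorine and fluorine. SP placebo mice had the same mutation and received DMSO. WT MAT2Ai mice had the wild-type Slc5a2 and received the inhibitor, and WT placebo mice had the wild-type gene and received DMSO. Each group had 5 libraries, all 20 came from mice given the high-fat diet, and the mutation, being in the germline, was present in every cell of SP mice.

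Cholesterol is made from acetyl-CoA through mevalonate, farnesyl diphosphate, squalene and lanosterol, and fatty acids are made from acetyl-CoA through malonyl-CoA and then elongated and desaturated. Both routes are driven by SREBP transcription factors, which are held in the endoplasmic reticulum by SCAP and INSIG proteins while sterols are plentiful and travel to the Golgi for cleavage when sterols run short. SREBP2, the product of Srebf2, mainly drives the sterol genes, and SREBP1, the product of Srebf1, mainly the fatty acid genes. MAT2A makes S-adenosylmethionine (SAM), the methyl donor of the cell, which phosphatidylcholine synthesis and histone methylation both use.

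Reads counted in genes numbered 53296824 in the smallest library and 79339949 in the largest. Levels are given as CPM, counts per 1000000 after scaling of the libraries by TMM, and members ranged in raw counts from 93 for Abcg1 to 28186 for Cyp51. Slc5a2 itself was at 72.6, 47.01, 43.5, 85.9 and 59.9 CPM in SP MAT2Ai, at 241, 282, 70.04, 40.2 and 56.7 in SP placebo, at 415, 229, 389, 325 and 384 in WT MAT2Ai and at 371, 518, 379.6, 405 and 447 in WT placebo (replicates 1 to 5). The libraries labelled SP placebo 1 and 2 stood between the other SP libraries and 9 of the 10 WT libraries, which lay between 325 and 518 CPM, the exception being WT MAT2Ai replicate 2. For the leading members of the comparisons that SP placebo enters, the value without this pair is also given. WT MAT2Ai replicate 2 stood apart on the first principal component (20.5% of the variance), at 89.7 against 21.8 for the next library, replicate 3 of that group. Markers of injured tubule (6 genes, Havcr1 and Lcn2 among them) summed to 6590 CPM in that library and to at most 702 CPM in the other 19, and 8 proximal tubule markers, which were abundant everywhere, summed to 6872 CPM in it, the lowest value of the 20. Whether a lower level reflected fewer cells of a type or less RNA per cell cannot be told apart in these bulk samples.

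Per length of annotated exon, the most abundant member was Cyp51, lanosterol 14-alpha-demethylase, at a mean level of 71.2 CPM per kb over the 20 libraries, and the least abundant was Abcg1, a cholesterol exporter, at 0.376 CPM per kb. In the sterol arm the median level was 4.28 CPM per kb, with Ebp (sterol isomerase) at 35.5, Hmgcs1 (the cytosolic HMG-CoA synthase) at 35.5, Nsdhl (a C4 decarboxylating dehydrogenase) at 34.1 and Mvd (mevalonate diphosphate decarboxylase) at 30.4 CPM per kb at the upper end and Lss, which closes squalene epoxide to lanosterol, lowest at 1.63 CPM per kb. In the fatty acid arm the median level was 9.65 CPM per kb, with Fads2, the delta-6 desaturase, highest at 33.8, Acly (ATP citrate lyase) at 25.2 and Acaca, acetyl-CoA carboxylase 1, lowest at 0.448 CPM per kb. The SREBP control genes lay between 6.71 CPM per kb for Srebf1 and 16.3 CPM per kb for Scap. The exon length joins all annotated transcripts of a gene, so genes with many alternative exons come out low on this scale.

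Few of these genes differed between groups, and no call was made for the inhibitor within a genotype. In SP MAT2Ai against SP placebo, 0 of 36 members passed an adjusted p of 0.05 in the edgeR quasi-likelihood test, where 0.0186% of all tested genes did. In WT MAT2Ai against WT placebo 0 of 36 passed (0% of all genes), and in SP placebo against WT placebo 0 of 36 passed (0% of all genes). In SP MAT2Ai against WT MAT2Ai 2 of 36 passed, both lower in SP MAT2Ai (1.84% of all genes passed, 0.644% higher and 1.2% lower). The interaction of genotype and inhibitor called 0 members and 0% of all genes. Averaged over both genotypes, MAT2Ai against placebo called 0 members (0.223% of all genes, 0.186% higher and 0.0371% lower), and averaged over both treatments, SP against WT called 0 members (1.33% of all genes, 0.607% higher and 0.724% lower).

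At an unadjusted p under 0.05 the edgeR test gave 3 of 36 members in SP MAT2Ai against SP placebo (5.92% of all genes), 10 of 36 in WT MAT2Ai against WT placebo (15.7%), 0 of 36 in SP placebo against WT placebo (3.75%), 12 of 36 in SP MAT2Ai against WT MAT2Ai (21.8%), 3 of 36 in the interaction (5.59%), 4 of 36 for MAT2Ai averaged over genotypes (14.7%) and 8 of 36 for SP averaged over treatments (19.6%). DESeq2 and limma-voom with sample weights too called 0 members in the first 3 of these comparisons and in the interaction. For MAT2Ai averaged over genotypes both called Mylip alone among the members, where DESeq2 called 1.19% and limma-voom 0.433% of all genes. For SP averaged over treatments DESeq2 called 3 members (Msmo1, Mvk and Scap) and 5.53% of all genes, and limma-voom called 4 members (the same 3 genes and Nsdhl) and 8.3% of all genes. Both tools called more genes than edgeR in these 2 comparisons, over all genes as well as among the members, and 3 and 4 of 36 lay near the all-gene shares.

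**Figure D1:**
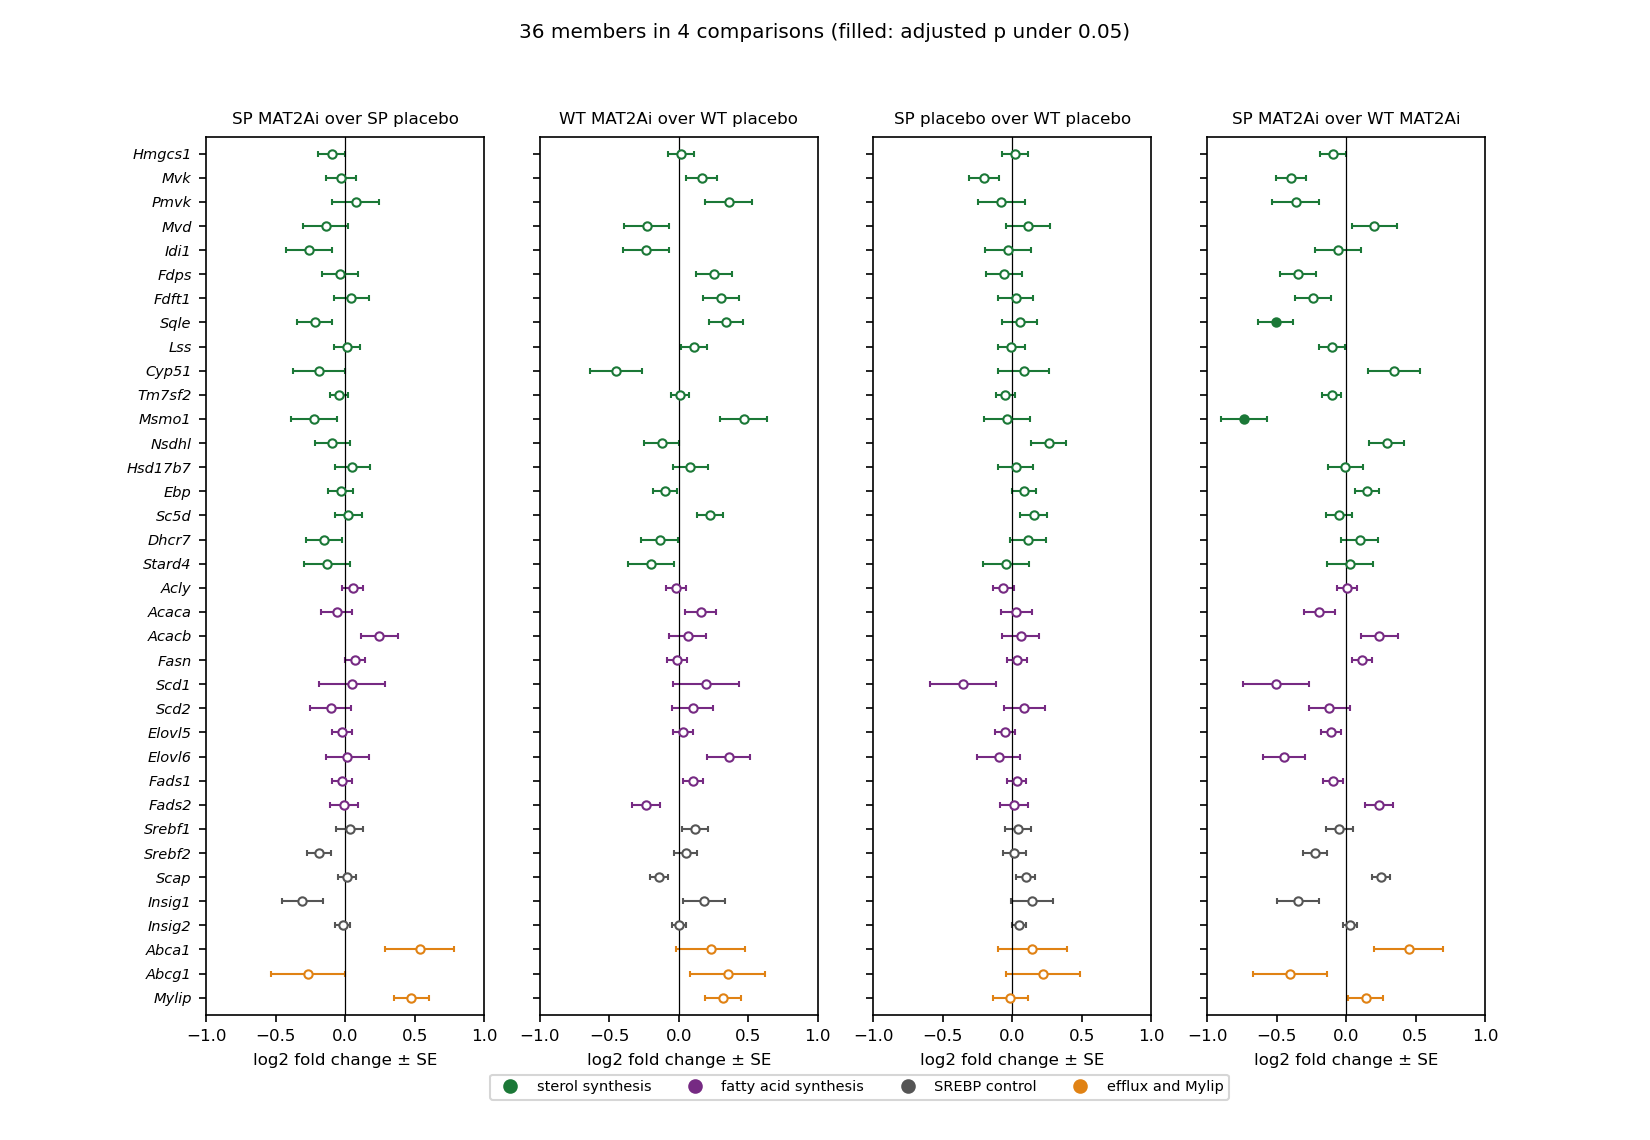
Log2 fold change (x axis) of the 36 members (y axis) in 4 comparisons of 5 libraries against 5, with bars for the SE, green for sterol synthesis, purple for fatty acid synthesis, grey for SREBP control and orange for efflux and Mylip. Filled points passed an adjusted p of 0.05, and these were Msmo1 (−0.73) and Sqle (−0.51) in SP MAT2Ai over WT MAT2Ai.

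The sterol arm did not move as 1 block. The median log2 fold change of its 18 genes was −0.07 in SP MAT2Ai against SP placebo (13 of 18 negative), beside 0.00 for all tested genes, and 0.05 in WT MAT2Ai against WT placebo (11 of 18 positive), beside 0.01. It was 0.02 in SP placebo against WT placebo, beside 0.00, and −0.08 in SP MAT2Ai against WT MAT2Ai (12 of 18 negative), beside −0.02. Each library was also given a score, the average over the arm's genes of their log2 CPM less the average of that gene in all libraries. It had a pooled SD of 0.0869 within groups, and each of the medians above was smaller than that. This SD is that of single libraries and not of group means, so it cannot say whether the medians exceed the spread of group means. The mean score was −0.054 in SP MAT2Ai, 0.028 in SP placebo, 0.021 in WT MAT2Ai and 0.0046 in WT placebo. The scores of the 4 groups overlapped, with SP MAT2Ai between −0.14 and −0.0027, SP placebo between −0.07 and 0.06, WT MAT2Ai between −0.14 and 0.18 and WT placebo between −0.11 and 0.09. SP MAT2Ai and SP placebo overlapped only through the library labelled SP placebo 1, at −0.07. The other SP placebo libraries, replicate 2 included, lay between 0.04 and 0.06, above every SP MAT2Ai library. The scores were not tested. Of the single genes of the arm, 6 of 18 had an unadjusted edgeR p under 0.05 in WT MAT2Ai against WT placebo (15.7% of all genes). There were 6 of 18 in SP MAT2Ai against WT MAT2Ai (21.8%), 0 of 18 in SP MAT2Ai against SP placebo (5.92%) and 0 of 18 in SP placebo against WT placebo (3.75%).

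**Figure D2:**
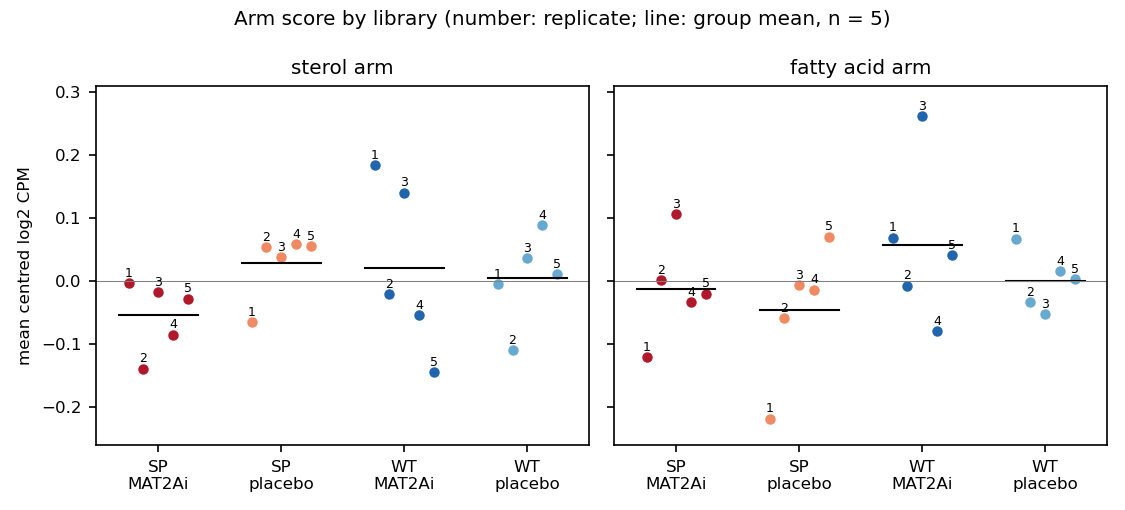
Mean centred log2 CPM (y axis) of the 18 sterol arm genes and the 10 fatty acid arm genes in each library, by group (x axis), with replicate numbers beside the points and a line at the group mean. The ranges of all 4 groups overlap in both arms, and WT MAT2Ai spans the widest range, from −0.14 to 0.18 for the sterol arm and from −0.08 to 0.26 for the fatty acid arm.

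Sequences are shown for 3 sterol arm genes that results below turn on, Msmo1 as the member with the smallest p in SP MAT2Ai against WT MAT2Ai and Cyp51 and Mvd as the members that went furthest the other way in 1 library. Each is the 250 bases before the annotated start (RefSeq, GRCm38.p6), written 5′ to 3′ on the gene's strand, with capitals for TCACNCCA, the core letters of a sterol regulatory element, and for CCAAT, a box bound by NF-Y that often lies beside such an element, on either strand (ATTGG is CCAAT on the other strand).
Msmo1, chr8:64733579-64733828, minus strand: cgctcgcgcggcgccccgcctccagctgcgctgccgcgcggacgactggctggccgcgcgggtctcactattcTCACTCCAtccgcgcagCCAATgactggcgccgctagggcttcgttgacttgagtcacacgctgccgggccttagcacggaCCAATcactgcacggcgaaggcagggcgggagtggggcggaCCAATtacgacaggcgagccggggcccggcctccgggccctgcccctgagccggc
Cyp51, chr5:4104698-4104947, minus strand: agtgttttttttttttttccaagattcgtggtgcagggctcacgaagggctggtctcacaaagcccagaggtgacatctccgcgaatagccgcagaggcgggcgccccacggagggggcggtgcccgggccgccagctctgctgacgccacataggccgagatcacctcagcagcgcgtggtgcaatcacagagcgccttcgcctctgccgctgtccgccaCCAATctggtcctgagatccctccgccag
Mvd, chr8:122443423-122443672, minus strand: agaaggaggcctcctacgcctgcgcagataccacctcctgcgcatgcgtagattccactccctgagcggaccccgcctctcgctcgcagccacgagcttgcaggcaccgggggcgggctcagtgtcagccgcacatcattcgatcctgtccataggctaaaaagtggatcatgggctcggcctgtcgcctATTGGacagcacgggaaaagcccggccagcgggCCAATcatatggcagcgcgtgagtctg

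Of the 36 members 28 had such a window in the RefSeq table. TCACNCCA stood in 3 of the 28 (Hmgcs1, Msmo1 and Srebf2), against 4.2% of the windows of 27025 genes, and CCAAT stood in 22 of the 28, against 37.5%. All 14 sterol arm genes with a window held CCAAT, as did 3 of 7 fatty acid genes. TCACNCCA ends in the letters CCA with which CCAAT begins, so matches of the 2 motifs can overlap. A match is only a description of the letters, and the windows of Sqle, Fdps, Fdft1, Stard4, Scd1, Scd2, Fads1 and Abcg1 were not analysed here. The gene coordinates in this text come from another annotation, GENCODE, which starts Msmo1 (at 64733792) and Cyp51 (at 4104746) further upstream than RefSeq. Part of the Msmo1 and Cyp51 windows therefore lies inside the gene as GENCODE places it.

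Msmo1, the methylsterol monooxygenase that oxidises the C4 methyl groups of lanosterol derivatives, lies on chromosome 8 from 64718139 to 64733792 (mm10, minus strand). It was at 19.1, 15.8, 18.98, 17.99 and 17.8 CPM in SP MAT2Ai and at 32.7, 47.4, 29.1, 22.03 and 17.9 CPM in WT MAT2Ai. The 2 groups overlapped only at the low end of WT MAT2Ai, where replicate 5 stood within the SP range, and replicate 2 was the highest of all 20 libraries. The log2 fold change was −0.73 ± 0.17 (SE; adjusted p = 0.0409 in the edgeR quasi-likelihood test). The placebo groups were close to each other, at 18.8, 22.02, 20.6, 22.3 and 21.2 CPM in SP placebo and 19.7, 21.1, 20.96, 23.7 and 22.6 CPM in WT placebo. Against its own placebo group the gene differed by −0.23 ± 0.17 in SP MAT2Ai (adjusted p = 0.965 in edgeR) and by 0.47 ± 0.17 in WT MAT2Ai (adjusted p = 0.218), both on the log2 scale.

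Sqle, squalene epoxidase, which carries out the first oxygen-requiring step of the route, lies on chromosome 15 from 59315077 to 59331192 (plus strand). It was at 72.8, 72.6, 68.2, 76.02 and 64.9 CPM in SP MAT2Ai and at 72.7, 147, 92.7, 96.04 and 94.8 CPM in WT MAT2Ai. Replicate 1 of WT MAT2Ai stood inside the SP MAT2Ai range and the other 4 above it, with replicate 2 highest of the 20 libraries. The log2 fold change was −0.51 ± 0.12 (SE; adjusted p = 0.0439 in edgeR). SP placebo had 84.4, 74.4, 78.6, 87.4 and 87.9 CPM and WT placebo 89.1, 70.2, 79.4, 83.7 and 75.7 CPM. Those groups overlapped throughout, and the log2 differences of the inhibitor groups from their own placebo were −0.22 ± 0.12 in SP mice (adjusted p = 0.915 in edgeR) and 0.34 ± 0.12 in WT mice (adjusted p = 0.225).

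Both calls rested in part on single libraries. Without WT MAT2Ai replicate 2 the log2 fold change of Msmo1 was −0.50 (adjusted p = 0.0444 in edgeR) and that of Sqle −0.33 (adjusted p = 0.0522), and without WT MAT2Ai replicates 2 and 3 they were −0.43 and −0.31 (adjusted p = 0.122 for each). In limma-voom Sqle was at −0.33 (adjusted p = 0.0699). Neither gene passed when SP MAT2Ai replicate 1, 2, 3 or 5 was left out in turn, or when the 10 libraries of the 2 groups were fitted alone (adjusted p = 0.208 for Msmo1 and 0.217 for Sqle). The interaction, which asks whether the inhibitor acted differently in the 2 genotypes, gave a log2 difference of −0.69 ± 0.24 for Msmo1 and −0.56 ± 0.18 for Sqle (adjusted p = 0.842 for each in edgeR), and −0.71 and −0.58 without the libraries labelled SP placebo 1 and 2 (adjusted p = 0.979 for each), and did not pass. With single libraries left out in turn it ran from −0.83 to −0.46 for Msmo1 and from −0.64 to −0.38 for Sqle. The log2 differences of WT MAT2Ai from WT placebo then ran from 0.23 to 0.60 for Msmo1 and from 0.16 to 0.42 for Sqle. The injured tubule markers, all 6 measured, summed to 242 to 403 CPM in SP MAT2Ai and 298 to 6590 CPM in WT MAT2Ai. In that pair of groups 2 of 6 passed the threshold. The 5 macrophage markers, 2 of them past the threshold there, summed to 13.3 to 33.7 CPM in SP MAT2Ai and 31.5 to 45.9 CPM in WT MAT2Ai. Krt20 was at 0 in 1 library and no other marker of either list was at 0 in any, and their part in the result was not tested.

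**Figure D3:**
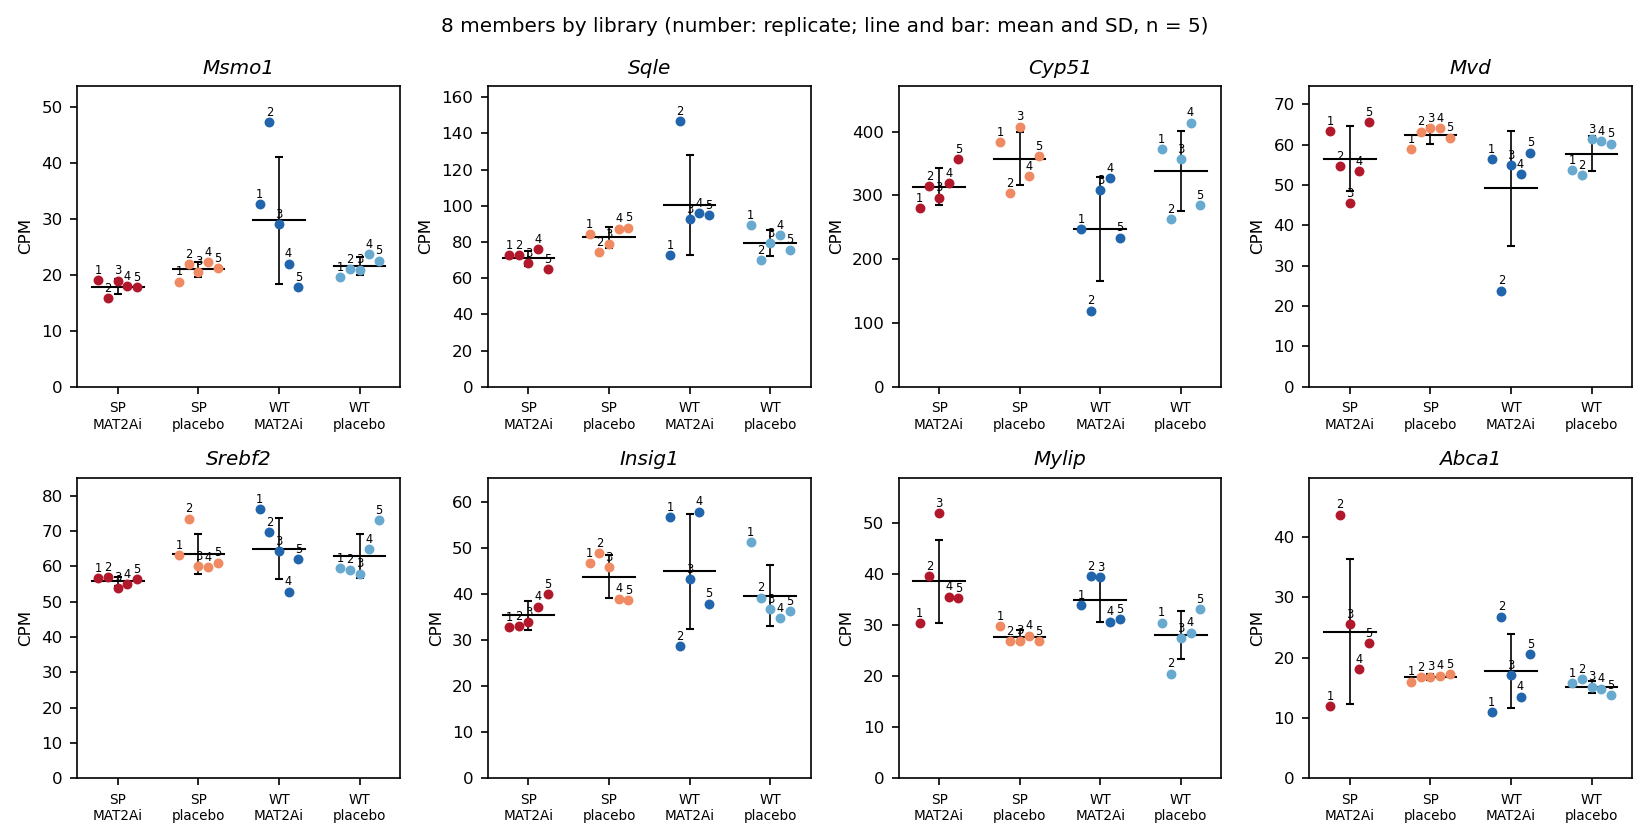
CPM (y axis) of 8 members in each of the 20 libraries by group (x axis), with replicate numbers, a line at the mean and a bar for the SD (n = 5). WT MAT2Ai replicate 2 is the highest library for Msmo1 (47.4 CPM) and Sqle (147 CPM) and the lowest for Cyp51 (119.6 CPM) and Mvd (23.8 CPM).

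Mvk, mevalonate kinase, was at 9.65, 9.05, 8.38, 9.72 and 9.58 CPM in SP MAT2Ai and at 12.8, 13.5, 14.6, 11.5 and 8.59 CPM in WT MAT2Ai. Replicate 5 of WT MAT2Ai stood within the SP range and the other 4 above it, and the log2 fold change of −0.40 ± 0.11 missed the threshold (adjusted p = 0.0558 in edgeR). SP placebo libraries had 8.96, 11.1, 9.34, 9.51 and 8.57 CPM and WT placebo libraries 12.2, 10.6, 10.3, 10.9 and 10.5 CPM. Of the SP placebo libraries, replicate 2 alone stood among the WT placebo values, and the log2 difference of −0.20 ± 0.11 (adjusted p = 1.0 in edgeR) was −0.26 without the pair labelled SP placebo 1 and 2. Averaged over treatments the log2 difference of SP from WT was −0.30 ± 0.08 (adjusted p = 0.0557 in edgeR), the smallest p of the 36 members in that comparison, and −0.33 without that pair (adjusted p = 0.0608).

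Nsdhl, which removes the C4 methyl carbon that Msmo1 has oxidised, had the opposite sign. It was at 123, 86.00, 111, 97.8 and 97.4 CPM in SP MAT2Ai and 100.1, 58.01, 75.5, 102 and 85.7 CPM in WT MAT2Ai, with a log2 difference of 0.29 ± 0.13 (adjusted p = 0.187 in edgeR). In the placebo groups it was at 98.8, 116, 108, 122 and 106 CPM in SP and 84.9, 81.4, 92.3, 92.7 and 108 CPM in WT, with a log2 difference of 0.26 ± 0.13 (adjusted p = 1.0 in edgeR). The groups overlapped in both comparisons, and the placebo difference was 0.28 without SP placebo replicates 1 and 2. Both enzymes act on the C4 methyl groups, Msmo1 before Nsdhl. In SP against WT averaged over treatments the log2 differences of Nsdhl and Msmo1 were 0.28 ± 0.09 and −0.39 ± 0.12 (adjusted p = 0.104 and 0.0892 in edgeR), or 0.29 and −0.37 without that pair (adjusted p = 0.133 and 0.141).

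Cyp51, the first enzyme after lanosterol, was lower on average in both inhibitor groups than in their placebo groups, and in neither by a difference that passed. It was at 281, 315, 297, 319 and 357 CPM in SP MAT2Ai and 383, 304, 408, 331 and 362 CPM in SP placebo, a log2 difference of −0.19 ± 0.19 (adjusted p = 0.986 in edgeR). It was at 248, 119.6, 309, 327 and 234 CPM in WT MAT2Ai and 373, 263, 357, 414 and 284 CPM in WT placebo, a log2 difference of −0.45 ± 0.19 (adjusted p = 0.259 in edgeR). The WT MAT2Ai libraries reached from well below to inside the placebo range. Averaged over genotypes the log2 difference was −0.32 ± 0.13 (adjusted p = 0.279 in edgeR), or −0.34 without SP placebo replicates 1 and 2. WT MAT2Ai replicate 2 was the lowest of the 20 libraries. With single libraries left out in turn, the WT difference ran from −0.57 to −0.28 and the averaged one from −0.38 to −0.24. Of the exon bases of Cyp51, 166 are shared with Akap9 on the other strand, so its count is less certain if the counting did not use strand.

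Idi1, the isopentenyl diphosphate isomerase, was at 6.87, 4.09, 6.199, 5.53 and 5.44 CPM in SP MAT2Ai, 5.98, 6.52, 6.87, 6.57 and 7.76 in SP placebo, 6.69, 4.16, 7.66, 5.86 and 4.904 in WT MAT2Ai and 5.91, 5.101, 7.596, 7.65 and 8.204 in WT placebo. The ranges overlapped, and averaged over genotypes the log2 difference of MAT2Ai from placebo was −0.25 ± 0.12 (adjusted p = 0.332 in edgeR), or −0.28 without SP placebo replicates 1 and 2. Sc5d, the sterol C5 desaturase, was at 12.1, 10.3, 10.3, 9.901 and 10.1 CPM in SP MAT2Ai, 9.32, 10.2, 11.6, 10.3 and 10.2 in SP placebo, 9.997, 13.7, 10.9, 8.81 and 10.96 in WT MAT2Ai and 9.31, 9.82, 9.58, 9.16 and 8.704 in WT placebo. Its WT MAT2Ai libraries included the highest of the 20, and the log2 difference from WT placebo was 0.22 ± 0.10 (adjusted p = 0.271 in edgeR). Lss was at 16.9, 18.2, 17.4, 15.98 and 18.2 CPM in SP MAT2Ai, 16.9, 17.9, 17.4, 16.4 and 17.2 in SP placebo, 24.8, 16.5, 18.3, 15.4 and 17.9 in WT MAT2Ai and 16.7, 15.7, 17.9, 17.2 and 18.8 in WT placebo. WT MAT2Ai replicate 1 stood above the other 19 libraries, which lay between 15.4 and 18.8 CPM, and no log2 difference of Lss between 2 groups was larger than 0.11.

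The other 10 sterol arm genes were Hmgcs1, Pmvk, Mvd, Fdps, Fdft1, Tm7sf2, Hsd17b7, Ebp, Dhcr7 and Stard4, the last a carrier of cholesterol between membranes. Their log2 differences lay between −0.36 for Pmvk in SP MAT2Ai against WT MAT2Ai (SE 0.17, adjusted p = 0.216 in edgeR) and 0.36 for the same gene in WT MAT2Ai against WT placebo (SE 0.17, adjusted p = 0.309). Fdps, which makes farnesyl diphosphate, differed by −0.35 ± 0.13 in SP MAT2Ai against WT MAT2Ai (adjusted p = 0.130 in edgeR), and Fdft1, squalene synthase, by 0.30 ± 0.13 in WT MAT2Ai against WT placebo (adjusted p = 0.265). Hmgcs1, the most upstream member of the route, had log2 differences of −0.10 ± 0.10, 0.01 ± 0.10, 0.02 ± 0.10 and −0.10 ± 0.10 in SP MAT2Ai over SP placebo, WT MAT2Ai over WT placebo, SP placebo over WT placebo and SP MAT2Ai over WT MAT2Ai. Fdft1 shares 774 of its 4227 exon bases with Ctsb on the other strand and Tm7sf2 shares 532 with Vps51 on the same strand, so their counts are less certain.

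WT MAT2Ai libraries spread more widely than the others. The coefficient of variation (SD over mean) of the 36 members had a median of 8.40% in SP MAT2Ai, 8.65% in SP placebo, 19.3% in WT MAT2Ai and 10.0% in WT placebo, and it was largest in WT MAT2Ai for 27 of 36 members. Without WT MAT2Ai replicate 2 the median in that group was 15.4%, and it was still largest there for 20 of 36 members. These are descriptions without a test. The coefficient of variation over all genes is not given here, so a wider spread particular to the members is not shown. WT MAT2Ai replicate 2 was the highest or the lowest of the 20 libraries for 47.2% of the members and for 43.8% of all tested genes.

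In WT MAT2Ai replicate 2 genes of the sterol arm stood out on both sides. Above all 19 other libraries were 6 of the 18 genes, Pmvk, Fdft1, Sqle, Msmo1, Hsd17b7 and Sc5d, and below all 19 were 4, Mvd, Cyp51, Nsdhl and Stard4, with 8 inside the range. Of all tested genes 22.6% were highest and 21.2% lowest in that library, so genes standing out on both sides were not particular to the arm. Msmo1 stood 1.13 log2 units above the WT placebo mean, Pmvk (phosphomevalonate kinase) 0.94, Sqle 0.88 and Fdft1 0.70, while Cyp51 stood at −1.50, Mvd at −1.28, Stard4 at −0.99 and Nsdhl at −0.66. Mvd was at 23.8 CPM there against 45.5 to 65.7 CPM in the other 19 libraries, and Stard4 at 22.9 CPM against 27.6 to 53.6 CPM. Some consecutive enzymes stood on opposite sides, as Pmvk and Mvd or Msmo1 and Nsdhl did, and others on the same side, as Fdft1 and Sqle did. The arm's score in that library was −0.02, close to the mean of all libraries. It was the library with the high injured tubule sum and the low proximal tubule sum given above, whose part in the split was not tested.

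**Figure D4:**
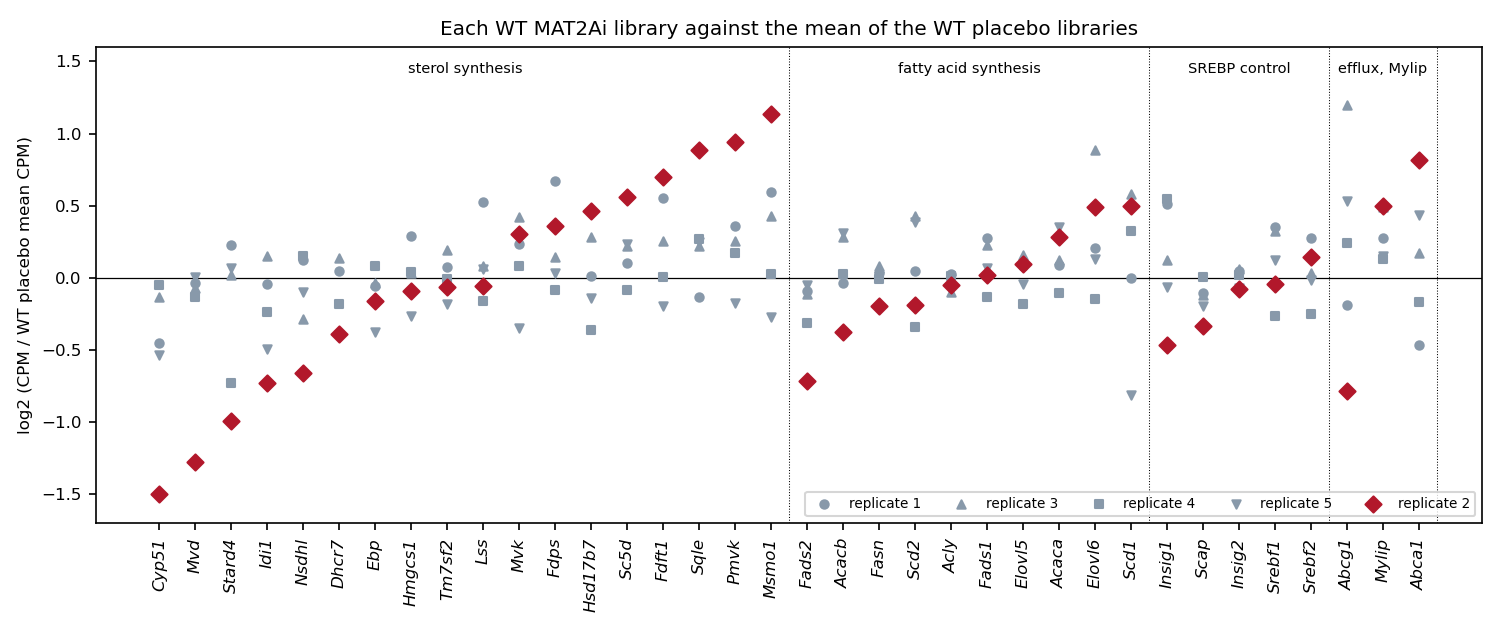
Log2 ratio (y axis) of each WT MAT2Ai library to the mean CPM of the 5 WT placebo libraries, for the 36 members (x axis) ordered within each arm by replicate 2 (red diamonds). In the sterol arm replicate 2 runs from −1.50 for Cyp51 to 1.13 for Msmo1, and the other 4 libraries (grey) stay mostly nearer 0.

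No gene of the fatty acid arm passed the threshold in any comparison, in edgeR, DESeq2 or limma-voom. The median log2 fold change of its 10 genes was 0.00 in SP MAT2Ai against SP placebo (all genes 0.00), 0.08 in WT MAT2Ai against WT placebo (0.01), 0.02 in SP placebo against WT placebo (0.00) and −0.10 in SP MAT2Ai against WT MAT2Ai (−0.02), with a pooled SD of the library score of 0.0958. Only the last of these medians was as large as that spread, which is that of single libraries and not of group means. At an unadjusted p under 0.05 there were 2 of 10 in WT MAT2Ai against WT placebo and 3 of 10 in SP MAT2Ai against WT MAT2Ai, against 15.7% and 21.8% of all genes. Fasn, fatty acid synthase, which assembles palmitate, differed by 0.07 ± 0.07 in SP MAT2Ai against SP placebo and by −0.01 ± 0.07 in WT MAT2Ai against WT placebo, and Acly, which supplies cytosolic acetyl-CoA, by 0.05 ± 0.07 and −0.02 ± 0.07 on the log2 scale.

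Fads2, which begins the synthesis of long polyunsaturated fatty acids, was the only member whose libraries did not overlap between SP MAT2Ai and WT MAT2Ai, where 1.71% of all genes stood wholly above, 1.68% wholly below and 3.4% in either direction. It was at 114, 113, 113, 117 and 119.9 CPM in SP MAT2Ai and 108, 70.4, 107, 93.01 and 111 CPM in WT MAT2Ai, and at 101, 119, 125, 116 and 120.1 CPM in SP placebo and 125, 97.96, 109, 114 and 131 CPM in WT placebo. SP MAT2Ai stood just above WT MAT2Ai and inside the range of both placebo groups, and the log2 difference of 0.23 ± 0.10 did not pass (adjusted p = 0.184 in edgeR). WT MAT2Ai replicate 2 was the lowest of the 20 libraries. Against WT placebo the WT MAT2Ai difference was −0.24 ± 0.10 (adjusted p = 0.272).

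Scd1, a delta-9 desaturase, was the most variable fatty acid gene. It was at 35.9, 40.2, 42.2, 34.2 and 37.7 CPM in SP MAT2Ai and 46.9, 66.5, 70.2, 58.8 and 26.7 CPM in WT MAT2Ai, a log2 difference of −0.50 ± 0.24 (adjusted p = 0.227 in edgeR). It was at 26.1, 19.96, 35.4, 46.01 and 56.2 CPM in SP placebo and 45.2, 54.3, 40.99, 54.4 and 40.2 CPM in WT placebo, a log2 difference of −0.36 ± 0.24 (adjusted p = 1.0). The 2 lowest SP placebo values belonged to the SP placebo libraries labelled 1 and 2, and without that pair the difference was −0.04. The highest value of all 20, in WT MAT2Ai replicate 3, came from the library with the highest sum of 8 adipocyte markers, which ran from 11.1 to 18.1 CPM in SP MAT2Ai, 14.7 to 35.7 in SP placebo, 15.8 to 54.7 in WT MAT2Ai and 14.8 to 39.2 in WT placebo. Of those markers Adipoq was at 0 in 7 libraries and at most 1.41 CPM in any, Fabp4 gave most of the sum, 1 of the 3 tested passed in SP MAT2Ai against WT MAT2Ai, and the part of fat tissue in the Scd1 level was not tested.

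Acaca, the enzyme that makes malonyl-CoA for synthesis, was at 6.11, 8.003, 8.27, 7.05 and 6.904 CPM in SP MAT2Ai, 6.69, 7.75, 8.67, 7.17 and 7.68 in SP placebo, 7.91, 9.07, 8.12, 6.92 and 9.51 in WT MAT2Ai and 8.04, 6.71, 7.11, 6.45 and 8.95 in WT placebo. The 4 groups overlapped. Elovl6, which elongates palmitate to stearate, differed by −0.45 ± 0.15 in SP MAT2Ai against WT MAT2Ai (adjusted p = 0.104 in edgeR), and its levels ranged from 4.62 to 12.8 CPM over all libraries. The remaining 6 genes, Acly, Acacb, Fasn, Scd2, Elovl5 and Fads1, had log2 differences between −0.12 for Scd2 and 0.25 for Acacb in the 4 comparisons of groups. Reads that mapped to more than 1 place, as stretches shared by Scd1 and Scd2 could give, were tallied apart and are not in the gene counts.

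Of the SREBP genes, Srebf2 had its libraries on separate sides in SP MAT2Ai and SP placebo. It was at 56.6, 56.9, 53.9, 54.96 and 56.3 CPM in SP MAT2Ai and 63.1, 73.5, 60.1, 59.7 and 61.02 CPM in SP placebo, every SP MAT2Ai library below every SP placebo library, as was the case in the same direction for 0.52% of all genes and in either direction for 1.58%. The gap between the groups was narrow, the log2 difference was −0.19 ± 0.08 and it did not pass (adjusted p = 0.833 in edgeR). Replicate 2 of SP placebo was the highest of its group, and without the libraries labelled SP placebo 1 and 2 the difference was −0.11 (adjusted p = 1.0). In WT mice it was at 76.2, 69.7, 64.3, 52.8 and 62.1 CPM under MAT2Ai and 59.5, 59.04, 57.97, 64.9 and 73.1 CPM under placebo, with full overlap and a log2 difference of 0.05 ± 0.08 (adjusted p = 0.812). The interaction was −0.24 ± 0.12 (adjusted p = 0.842), and −0.15 without that pair (adjusted p = 0.979).

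Srebf1 passed in no comparison in edgeR, DESeq2 or limma-voom. It was at 37.1, 40.1, 36.9, 35.98 and 40.5 CPM in SP MAT2Ai, 33.8, 40.9, 35.99, 41.04 and 34.8 in SP placebo, 46.3, 35.2, 45.4, 30.3 and 39.6 in WT MAT2Ai and 34.8, 38.4, 32.9, 37.9 and 37.7 in WT placebo. WT MAT2Ai held both the highest and the lowest of the 20 libraries. The largest log2 difference of Srebf1 between 2 groups was 0.12 ± 0.09, in WT MAT2Ai against WT placebo (adjusted p = 0.558 in edgeR). The counts join the transcripts of SREBP1a and SREBP1c, which start at different promoters of the same gene.

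Insig1, which retains the SREBP and SCAP complex and is itself a target of SREBP, was at 32.8, 32.96, 33.8, 37.2 and 39.9 CPM in SP MAT2Ai and 46.6, 48.8, 45.8, 38.99 and 38.6 CPM in SP placebo. All but 1 of the SP MAT2Ai libraries lay below all of SP placebo, and the log2 difference of −0.31 ± 0.15 did not pass (adjusted p = 0.850 in edgeR). Without SP placebo replicates 1 and 2 the difference was −0.21. In WT mice it was at 56.6, 28.7, 43.3, 57.8 and 37.9 CPM under MAT2Ai and 51.2, 39.2, 36.7, 34.7 and 36.3 CPM under placebo, and replicates 1 and 4 of WT MAT2Ai were the highest and replicate 2 the lowest of all 20 libraries. Insig2, the form that does not depend on SREBP in liver, was the steadiest member of the set, between 40.6 and 47.0 CPM in all libraries.

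Scap, the escort of the SREBPs, missed the threshold in edgeR and passed it in both other tools. It was at 139.7, 128, 128, 119 and 132 CPM in SP MAT2Ai and 111, 95.1, 110.4, 121 and 105 CPM in WT MAT2Ai, a log2 difference of 0.25 ± 0.07 (adjusted p = 0.0503 in edgeR, 0.00867 in DESeq2 and 0.0499 in limma-voom, which called 1.84%, 7.45% and 2.46% of all genes). The groups overlapped by 1 library on each side. In the placebo groups it was at 125, 135, 130.1, 128 and 121 CPM in SP and 120.4, 106, 116, 131 and 126 CPM in WT, a log2 difference of 0.09 ± 0.07 (adjusted p = 1.0). Averaged over treatments the difference of SP from WT was 0.17 ± 0.05 (adjusted p = 0.0628 in edgeR, 0.0148 in DESeq2 and 0.0209 in limma-voom, and 0.110 in edgeR without SP placebo replicates 1 and 2), and 985 of the 7443 exon bases of Scap are shared with a gene model known only by a clone name on the other strand.

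The genes of cholesterol efflux and receptor turnover, known targets of the LXR receptors, gave 0 calls in edgeR in any comparison. At an unadjusted edgeR p under 0.05 there were 2 of 3 in SP MAT2Ai against SP placebo (5.92% of all genes) and 1 of 3 in WT MAT2Ai against WT placebo (15.7%). There were 0 of 3 in SP placebo against WT placebo (3.75%) and in SP MAT2Ai against WT MAT2Ai (21.8%). Mylip, a ubiquitin ligase that sends lipoprotein receptors to degradation, was at 30.4, 39.5, 51.9, 35.5 and 35.3 CPM in SP MAT2Ai and 29.8, 26.9, 26.9, 27.9 and 26.9 CPM in SP placebo. Every SP MAT2Ai library stood above every SP placebo library, as was the case for 1.06% of all genes, though replicate 1 did so by little. The log2 difference was 0.48 ± 0.13, the smallest p of the 36 members in this comparison, and did not pass (adjusted p = 0.544 in edgeR, 0.131 in DESeq2 and 0.108 in limma-voom), and it was 0.51 without SP placebo replicates 1 and 2 (adjusted p = 1.0 in edgeR). In WT mice Mylip was at 33.9, 39.5, 39.3, 30.6 and 31.1 CPM under MAT2Ai and 30.4, 20.5, 27.4, 28.5 and 33.1 CPM under placebo, with overlap at 1 placebo library and a log2 difference of 0.32 ± 0.13 (adjusted p = 0.247 in edgeR). Averaged over genotypes the log2 difference was 0.40 ± 0.09, with an adjusted p of 0.0807 in edgeR, 0.00710 in DESeq2 and 0.0325 in limma-voom, and 0.41 without that pair (adjusted p = 0.235 in edgeR).

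Abca1, the exporter that loads cholesterol onto apolipoproteins, showed a wider spread under the inhibitor. It was at 11.9, 43.7, 25.5, 18.2 and 22.4 CPM in SP MAT2Ai and 16.03, 16.8, 16.9, 17.03 and 17.2 CPM in SP placebo, a log2 difference of 0.54 ± 0.25 (adjusted p = 0.834 in edgeR). It was at 11.02, 26.8, 17.1, 13.5 and 20.6 CPM in WT MAT2Ai and 15.8, 16.4, 15.2, 14.9 and 13.8 CPM in WT placebo, a log2 difference of 0.23 ± 0.25 (adjusted p = 0.677). Within each inhibitor group replicate 2 was highest and replicate 1 lowest, below every placebo library of that genotype, while the placebo libraries lay between 16.03 and 17.2 CPM in SP and between 13.8 and 16.4 CPM in WT. Without SP MAT2Ai replicate 2 the difference in SP mice was 0.21, and without SP placebo replicates 1 and 2 it was 0.52. Averaged over genotypes it was 0.38 ± 0.18 (adjusted p = 0.323), or 0.37 without that pair.

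Abcg1, which exports cholesterol to lipoprotein particles, was at 2.37, 2.57, 2.33, 2.21 and 2.54 CPM in SP MAT2Ai, 2.57, 4.14, 2.23, 2.49 and 3.06 in SP placebo, 2.18, 1.44, 5.71, 2.95 and 3.600 in WT MAT2Ai and 2.199, 3.64, 2.17, 2.46 and 1.97 in WT placebo. It was the scarcest member, its ranges overlapped, and WT MAT2Ai held both its highest library (replicate 3) and its lowest (replicate 2). Its log2 difference was −0.27 ± 0.27 in SP MAT2Ai against SP placebo and 0.35 ± 0.27 in WT MAT2Ai against WT placebo (adjusted p = 0.986 and 0.530 in edgeR).

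In SP MAT2Ai against WT MAT2Ai the groups thus overlapped in 35 of 36 members, where 3.4% of all genes did not overlap. In SP MAT2Ai against SP placebo they overlapped in 34 of 36, where 1.58% of all genes did not (1.06% higher and 0.52% lower). In WT MAT2Ai against WT placebo and in SP placebo against WT placebo they overlapped in all 36. Of all genes 2.19% did not overlap in the WT pair (1.52% higher and 0.662% lower) and 1.19% in the placebo pair (0.656% higher and 0.539% lower). The comparisons share groups, each inhibitor group and each placebo group entering 2 of the 4, so their values are not independent of each other.

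Other genes of the same pathways were counted from 2 lists. Of 30 tested genes of sterol handling beside the members, 0 passed in SP MAT2Ai against SP placebo, in WT MAT2Ai against WT placebo and in SP placebo against WT placebo in edgeR (0.0186%, 0% and 0% of all genes). At an unadjusted edgeR p under 0.05 there were 2, 3 and 2 of 30 (5.92%, 15.7% and 3.75% of all genes). In SP MAT2Ai against WT MAT2Ai 1 of 30 was lower and 0 were higher (1.2% of all genes lower and 0.644% higher). It was Scarb1, the receptor for high-density lipoprotein, at 6.78 to 8.74 CPM in SP MAT2Ai and 8.66 to 13.1 CPM in WT MAT2Ai, with a log2 difference of −0.44 ± 0.11 (adjusted p = 0.0448). Of 30 tested genes of fatty acid handling, 0 passed in the first 3 comparisons in edgeR, with 1, 6 and 2 of 30 at an unadjusted p under 0.05, and 1 of 30 was higher and 0 lower in SP MAT2Ai against WT MAT2Ai. It was Hacd2, a dehydratase of the elongation cycle, at 116.5 to 128 CPM in SP MAT2Ai and 92.8 to 110.5 CPM in WT MAT2Ai, with no overlap (1.71% of all genes stood wholly above) and a log2 difference of 0.27 ± 0.05 (adjusted p = 0.0304 in edgeR). Values of Scarb1 and Hacd2 in the other fits are not given here. Over all genes, calls in this comparison fell to 0.0129% when only the compared groups were fitted. Averaged over treatments 2 of 30 were higher in SP than in WT (0.607% of all genes), Hacd2 by 0.21 ± 0.04 and Acsl3, which activates long-chain fatty acids, by 0.31 ± 0.06 (adjusted p = 0.0202 for each in edgeR). Of the sterol handling genes 0 of 30 passed, with 9 of 30 at an unadjusted p under 0.05 (19.6% of all genes).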

How the data were processed

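Kidney cortex RNA was sequenced as poly(A)-selected, directional bulk libraries (1 label text speaks of single nuclei, yet mitochondrially encoded genes took 12.4% to 22.2% of counts). The deposited values are raw counts per gene, unscaled, which the authors made with STAR on mm10 and htseq (Ensembl release 78). How htseq treated strand is not given in the sources used here. The 5 summary lines per file were left out: reads outside genes were 3.87% to 5.49% and ambiguous reads 0.702% to 0.794% of uniquely aligned reads, and multiply mapped alignments 48.3 to 63.6 per 100 gene counts. Symbols, coordinates and exon lengths came from GENCODE M21, which annotated 42546 of 43430 IDs.

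Groups and replicate numbers were taken from the titles. Counts were filtered with filterByExpr, scaled by TMM and tested with the edgeR 4.0.16 quasi-likelihood test (R 4.3.3) over all 20 libraries with 1 coefficient per group, and p values were adjusted by Benjamini-Hochberg over 16152 genes with a threshold of 0.05. The 7 comparisons came from this fit, and every p in the text comes from it unless another tool is named. The code was tested on simulated data. Alternatives were DESeq2 1.42.0, limma-voom with sample weights (limma 3.58.1), RLE size factors, no mitochondrial genes, no filter, a replicate block, the compared groups alone, and fits with libraries left out. No 2 files were identical. The labels do not say that each library is a separate animal, so p values measure the spread between these samples.

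The members, arms and other lists were chosen with earlier results of these data known, so arm medians are descriptions without a test. Values by library are given for members past the threshold in any comparison, the 4 with the smallest p in each, the highest and lowest per length in each arm, and Srebf1 and Srebf2. Other members are given by range and count, and those among them with values of their own were picked after the values were seen. Promoter windows of 250 bases came from RefSeq (GRCm38.p6).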

Additional observations from a re-analysis of the deposited data

Results flagged for a closer look

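Among 144 groups of 5 libraries (36 members in 4 groups), 8 held a library whose gap to its nearest neighbour was large against the range of its group by Dixon's test (critical value 0.71), where chance gives about 1 in 20. SP placebo held 5 of the 8. Hmgcs1 was lowest in SP placebo replicate 3, at 151 CPM against 167 to 173 in the others of the group. Dhcr7 was at 13.7 CPM in the library labelled SP placebo 1, against 18.1 to 18.8, and Stard4 at 36.7 CPM in the same library, against 45.4 to 47.3. Fads1 was at 108 CPM in the library labelled SP placebo 2, against 90.6 to 95.5, and Srebf2 at 73.5 CPM in the same library, against 59.7 to 63.1. Sc5d was at 12.1 CPM in SP MAT2Ai replicate 1, against 9.90 to 10.3. Mvd was at 23.8 CPM in WT MAT2Ai replicate 2, against 52.7 to 58.0. Insig1 was at 51.2 CPM in WT placebo replicate 1, against 34.7 to 39.2.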

How the results depend on the processing

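The sterol arm medians moved by less than the spread between libraries in all 156 refits, and no called value changed sign. This says little about the medians, since each was smaller than that spread and could reverse without counting as moved. With single libraries left out, the median reached −0.0229 in WT MAT2Ai against WT placebo and −0.0148 in SP placebo against WT placebo. It reached −0.0229 for MAT2Ai averaged over genotypes and 0.00349 for SP averaged over treatments, so these medians changed sign. In the other comparisons it stayed negative. Members past the threshold in SP MAT2Ai against WT MAT2Ai, 2 in the edgeR fit, were 4 with DESeq2 (Msmo1, Mvk, Scap and Sqle), 0 when only the compared groups were fitted, 0 without WT MAT2Ai replicates 2 and 3, and 0 to 6 when single libraries were left out, with 6 without WT MAT2Ai replicate 4, 1 without WT MAT2Ai replicate 2 or 3, and 0 without SP MAT2Ai replicate 1, 2, 3 or 5. Limma-voom gave 3 (Msmo1, Mvk and Scap). The calls over all genes moved as well, at 1.84% in the edgeR fit, 7.45% with DESeq2, 2.46% with limma-voom, 0.0129% with the compared groups alone, 0% without WT MAT2Ai replicates 2 and 3, 4.74% without WT MAT2Ai replicate 4, 1.44% and 1.09% without WT MAT2Ai replicate 2 or 3, and 0% to 0.233% without SP MAT2Ai replicate 1, 2, 3 or 5. Same-numbered libraries did not deviate together (mean r = −0.0158 over 30 pairs, 4 of them over 0.1, and 6 of 20 libraries matched their own number best), so the numbers pair nothing known. With a replicate block 0 members passed in that comparison (lowest adjusted p = 0.0708, with 0.545% of all genes called). For MAT2Ai averaged over genotypes, 0 in the edgeR fit, DESeq2 and limma-voom gave 1 (1.19% and 0.433% of all genes), and leaving out single libraries 0 to 1. For SP averaged over treatments, 0 in the edgeR fit, DESeq2 gave 3 (5.53% of all genes), limma-voom 4 (8.3%), and leaving out single libraries 0 to 3 (0.122% to 3.52%). The fatty acid arm median of the interaction, −0.09, was 0.032 without WT MAT2Ai replicates 2 and 3 and ran from −0.10 to 0.018 when single libraries were left out (0.018 without SP placebo replicate 5). The causes were not tested. Of 624 refits of single members 580 kept their side of the threshold, 27 came to pass it and 17 came to miss it. Other scalings moved the median of all genes by at most 0.0106 on the log2 scale. Depth limited little, since the scarcest member had at least 93 counts in every library.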
